A study of Mus musculus with 6 samples.

Results

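Retained intron nodes are stretches of a gene, mostly whole introns, that the deposited splicing tables score for how often they are kept in RNA. For each node the tables give Psi, the estimated share of transcripts that keep it (a fraction from 0 to 1), and the number of reads behind that share. The nodes described here are those of retained intron type with 20 or more reads in all 6 libraries. Of 10949 retained intron nodes in the series, 5599 met this rule, and they lie in 3305 genes, 1297 of which hold 2 or more. Another 3254 nodes had no value in at least 1 library, and 2096 had a value everywhere but under 20 reads somewhere. The 99 nodes just inside the limit, whose shallowest library had 20 to 20.8 reads, had a median Psi of 0.0561, and the 92 nodes just outside it, at 19 to 19.8 reads, had a median of 0.073.

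The cells, labelled aortic endothelial, were a mouse line called Fn AB+/- in the labels, immortalised with TetOn-SV40, expanded in doxycycline and taken off it before the experiment. Groups were WT cells, cells with a CRISPR deletion of Ptbp1 from a single-cell clone (KO), and deleted cells given human PTBP1 cDNA (Rescue), so KO cells represent 1 clone. Each was sequenced without TNF and after TNF at 30 ng/mL, with 1 library per group and no replicates. File names and labels disagree for 4 of 6 libraries. Groups below are read from the file names, with "basal" taken as WT, and are written as "named". The library named WT is labelled WT, WT_TNF is labelled KO, KO is labelled Rescue, KO_TNF is labelled WT_TNF, Rescue is labelled KO_TNF, and Rescue_TNF is labelled Rescue_TNF. No test decides between file names and labels, and results under the labels follow at the end.

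Values that bear on the grouping were these. Mouse Ptbp1 stood at 180 and 198 TPM in the libraries named WT and WT_TNF, at 212 and 219 in KO and KO_TNF, and at 80.6 and 78.3 in Rescue and Rescue_TNF, so RNA of the targeted gene was not lower in the libraries named KO, and whether the edited transcript is read into protein was not measured. Ptbp2, a paralog whose RNA Ptbp1 is known to repress, was at 29.1 and 23.2 TPM in the named WT pair, 105 and 83.6 in the named KO pair, and 37.6 and 41.5 in the named Rescue pair. Ccl2, a chemokine gene induced by TNF, was at 109, 70.1 and 121 TPM in the libraries named WT, KO and Rescue and at 4699, 865 and 3793 TPM in their named TNF partners. Vcam1 was at 67.7, 26.7 and 41 TPM in the same untreated libraries and at 818, 124 and 524 TPM in those TNF partners. By the labels, Ccl2 was at 109, 4699 and 70.1 TPM in untreated WT, KO and Rescue and at 865, 121 and 3793 TPM with TNF. Of 10 endothelial marker genes, 8 were at or below 1 TPM in every library, Pecam1, Cdh5 and Kdr among them. Only 1 was above 1 TPM in every library, and the 10 summed to 125 to 177 TPM. Of 10 smooth muscle and fibroblast markers, 6 were above 1 TPM in every library, and Myh11 was at or below it throughout. The summed level of that second list ran from 3353 to 7533 TPM and was lower in each named TNF library than in its untreated partner. Its part in the intron results was not tested. Libraries held 26882058 to 30011222 gene reads, and a retained intron node had a median of 90 to 103 reads per library.

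An intron is kept when the splicing machinery does not pair its 5′ and 3′ splice sites before the RNA is released. Ptbp1 is an RNA-binding protein that binds stretches rich in C and U and often blocks use of a nearby splice site. In many mammalian cells a set of introns in genes of splicing factors is kept at a substantial share in nuclear RNA, and an intron kept in coding sequence usually brings an in-frame stop codon that can expose a cytoplasmic copy to nonsense-mediated decay.

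The sequences below belong to nodes whose Psi differed between the libraries named KO and WT or with TNF, and that overlap no annotated untranslated region. They were read on the transcript strand from GENCODE vM21 transcripts (GRCm38), 5′ to 3′, and capitals mark the longest unbroken run of C and T in what is shown. The Kctd17 and Ciz1 nodes are whole, and the Clcf1 and Psd sequences are the last 60 bases before the exon. Positions are chr15:78437100-78437157 on the plus strand for Kctd17, chr19:4222014-4222073 plus for Clcf1, chr2:32371114-32371248 plus for Ciz1 and chr19:46313799-46313858 minus for Psd.
Kctd17: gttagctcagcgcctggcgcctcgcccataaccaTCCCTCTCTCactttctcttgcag
Clcf1: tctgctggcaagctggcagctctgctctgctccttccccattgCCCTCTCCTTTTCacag
Ciz1: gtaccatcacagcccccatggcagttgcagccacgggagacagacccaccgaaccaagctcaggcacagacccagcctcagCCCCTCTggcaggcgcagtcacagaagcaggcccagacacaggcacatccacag
Psd: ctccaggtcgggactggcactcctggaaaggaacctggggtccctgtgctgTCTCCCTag
The run is 10 bases in Kctd17, 13 in Clcf1, 7 in Ciz1 and 7 in Psd. Over the last 60 bases of 5470 nodes of at least that length, the longest run had a median of 8 bases and quartiles of 6 and 11, so only the Clcf1 run lies above the upper quartile.

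Most of the 5599 nodes were whole annotated introns (5401), and 5192 of 5383 whole introns with sequence began with GT and ended with AG. The median length was 222 bases. By position, 4215 lay between coding exons, 296 in a 5′ UTR, 122 in a 3′ UTR, 768 in noncoding or other transcripts, and 198 matched no whole annotated intron. An exon of another gene overlapped 245 nodes, 148 of them on the opposite strand, and strand-specific counting is not stated in the sources used here, so reads of the 2 genes cannot be told apart there. The 41 nodes with the ATATCC or GTATCC donor of the minor spliceosome had a median mean Psi of 0.0521, against 0.036 for all nodes.

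Psi was low in most nodes. It was 0 in all 6 libraries for 581 nodes and below 0.1 in all 6 for 3476, while 1097 nodes were above 0.1 in every library, 600 were above 0.5 in every library and 263 were at 1 in every library. Nodes at low and high Psi differed in position, as the plot of position by mean Psi shows. Of 4108 nodes with a mean Psi under 0.1, 84.2% lay between coding exons, against 65.6% of 841 nodes from 0.1 to 0.5 and 31.4% of 650 nodes over 0.5. Nodes over 0.5 were the last intron of a transcript in 325 of 650 cases, against 31.7% under 0.1, and 28.8% of them lie inside annotated coding sequence of another transcript, against 1.29%. Where the reading frame could be followed, 87.5% of low nodes and 47.9% of high nodes carried an in-frame stop codon. The 187 high nodes inside coding sequence are bases that another annotated transcript treats as exon, such as those in Taf15, an RNA-binding protein gene, and Ftl1, the ferritin light chain, where Psi was 1 throughout.

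**Figure D1:**
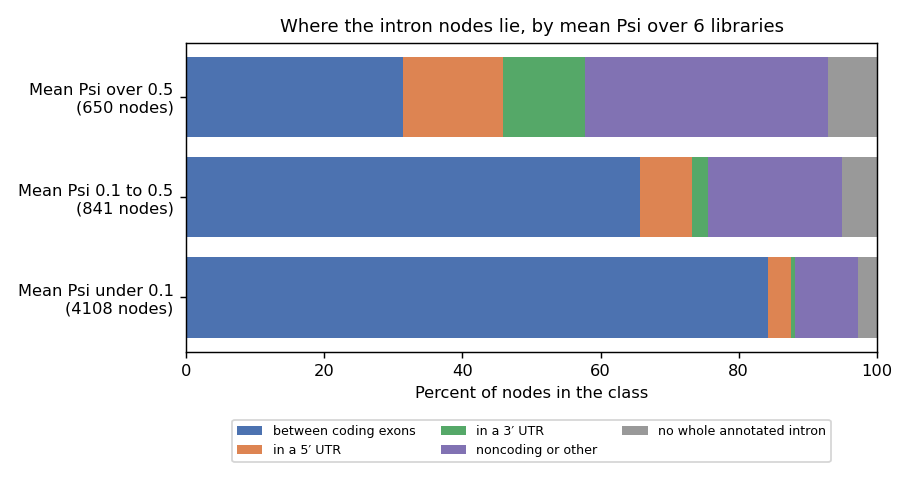
Share of nodes (percent, horizontal axis) by position in the annotation, for 3 classes of mean Psi over the 6 libraries. Nodes between coding exons make up 84.2% of the class under 0.1 and 31.4% of the class over 0.5.

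Across libraries, the share of nodes with Psi over 0.1 was highest in the library named WT, at 30.2%. It was 25.8% in WT_TNF, 24.6% in KO, 25.6% in KO_TNF, 28.1% in Rescue and 28.6% in Rescue_TNF. Median Psi followed the same order, with WT_TNF and KO_TNF tied, from 0.0407 in named WT to 0.0289 in named KO. The share over 0.5 hardly varied, from 11.5% to 11.9%, so the libraries differed in nodes at low to middle Psi. Named WT was also the library with the fewest gene reads, 26882058, and among nodes with 50 or more reads it was still the highest (24.9%, against 20.9% to 23.7% in the others). These levels are a description, and no test was run on them.

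**Figure D2:**
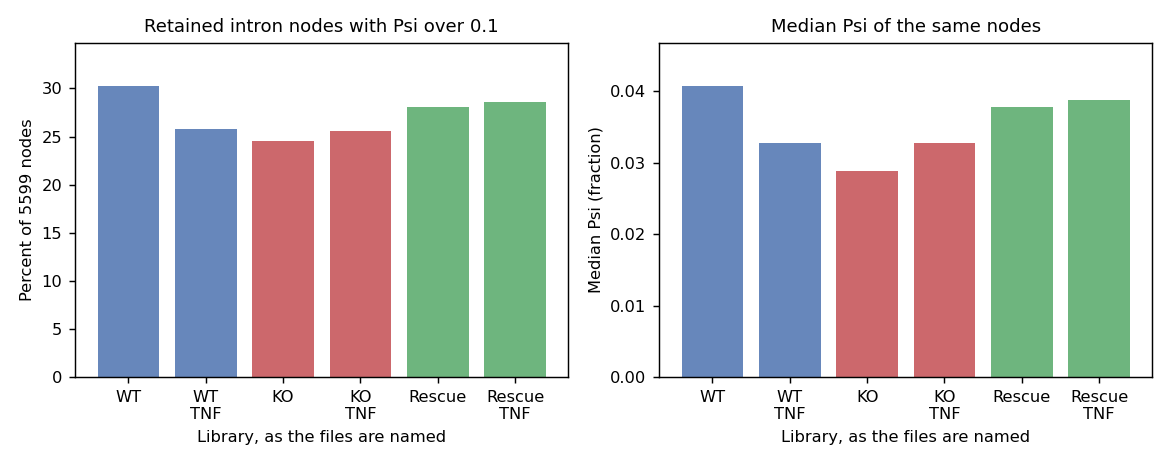
Percent of the 5599 nodes with Psi over 0.1 (left) and their median Psi (right) in each library, as the files are named, 1 bar per library. Named WT is highest at 30.2% and named KO lowest at 24.6%.

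The comparison of KO with WT asks which introns are kept differently when Ptbp1 is disrupted. A quasi-likelihood test in edgeR compared each node's inclusion and exclusion reads, with genotype and TNF as terms that add on the log2 odds scale. Its error is how unequal differences are between untreated and TNF libraries over all 3 genotypes, Rescue included, not a spread between replicates. edgeR also draws each node's error toward values estimated from all nodes fitted. Of 3563 nodes with enough reads of both kinds, 4 passed an adjusted p under 0.05 for the libraries named KO against WT: 3 fell, Kctd17 and Idh3b among them, and 1 rose (Clcf1). The share called was 0.112% of retained intron nodes and 1.11% of the 14870 nodes of all types fitted, of which cassette exons made up 144 of 7439 (1.94%). At an unadjusted p under 0.05 there were 141 retained intron nodes. limma on log2 odds called 0 nodes, with 154 at an unadjusted p under 0.05.

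Kctd17, an adaptor of a cullin-3 ubiquitin ligase, held the node with the largest drop. Psi was 0.865 and 0.879 in named WT and WT_TNF, 0.486 and 0.421 in KO and KO_TNF, and 0.837 and 0.879 in Rescue and Rescue_TNF. Both named KO libraries lie below all the others, and their deposited intervals (0.448 to 0.524 and 0.382 to 0.462; the confidence level is not stated) overlap none of the other 4. On the log2 odds scale the node fell by 3.02 in KO against WT (SE 0.25, edgeR adjusted p = 0.00194) and rose by 2.83 in Rescue against KO (adjusted p = 0.00466). This 58-base node matches no whole annotated intron, and it moved with its neighbours: the exon part just before it was at 0.865 and 0.901 in the named WT pair and 0.512 and 0.44 in the named KO pair, and the exon just after it at 0.872 and 0.884 against 0.525 and 0.464. The values therefore describe a block of exon and intron that was left out together, with 36 and 35 reads skipping the node in the named WT pair and 126 and 134 in the named KO pair.

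Clcf1 encodes a cytokine of the interleukin-6 family. Psi of its last intron, 1729 bases between coding exons at chr19:4220345-4222073 with an in-frame stop, was 0.717 and 0.638 in the named WT pair, 0.935 and 0.948 in the named KO pair, and 0.738 and 0.764 in the named Rescue pair. The named KO libraries are the highest and do not overlap the rest. The log2 odds rose by 3.02 (SE 0.51, edgeR adjusted p = 0.0469), close to the threshold. Host gene RNA was 33.5 and 68.3 TPM in the named KO pair and 28.9 to 40.5 TPM in the other 4 libraries. The call was lost in 4 of 6 fits that left out a library, although the log2 odds stayed between 2.65 and 3.28. Those 4 left out a library named WT, WT_TNF, KO or KO_TNF, that is, each library compared. The 2 fits that kept the call left out a named Rescue library. With edge reads in place of the deposited shares, Kctd17 was the only call.

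Idh3b encodes a subunit of the mitochondrial NAD-dependent isocitrate dehydrogenase. Its 118-base node at chr2:130279438-130279555 is spliced out in an annotated noncoding transcript and lies in the 3′ UTR of the coding transcript. Psi was 1 and 1 in the named WT pair, 0.893 and 0.898 in the named KO pair, and 0.9 and 0.92 in the named Rescue pair (edgeR adjusted p = 0.0418 for KO against WT). The exon just before this node moved less in the same direction. It was at 1 and 1 in the named WT pair, 0.926 and 0.952 in KO, and 0.946 and 0.967 in Rescue. Reads that skip the node numbered 1 and 1 in the named WT pair, 19 and 18 in the named KO pair, and 17 and 12 in the named Rescue pair. The Rescue libraries were thus close to KO, not to WT. The call was lost in 4 of 6 fits without a library, again those without a library named WT, WT_TNF, KO or KO_TNF.

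**Figure D3:**
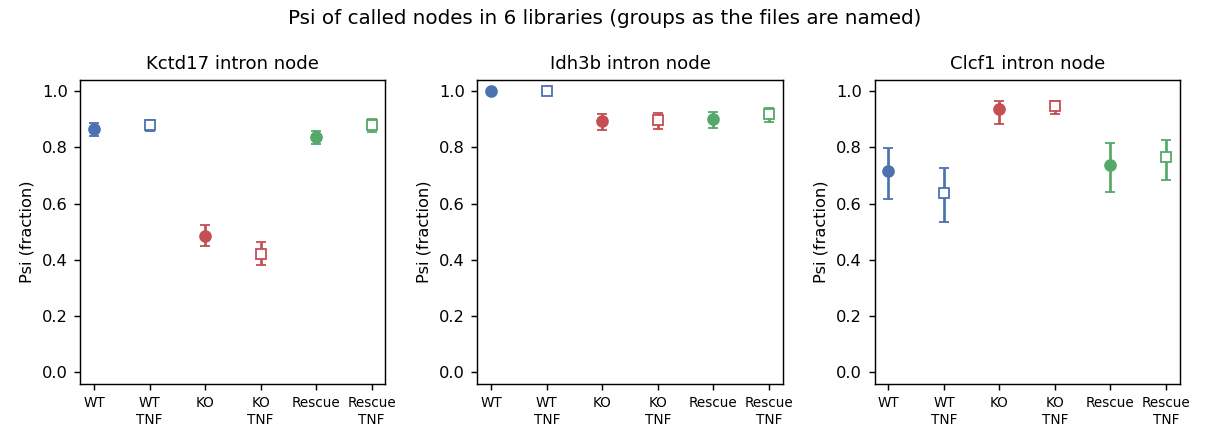
Psi (fraction) of the Kctd17, Idh3b and Clcf1 nodes, called for KO against WT, in each library as the files are named. Circles are untreated and open squares TNF libraries, and bars are the deposited intervals. The named Rescue pair lies near WT for Kctd17 and Clcf1 and near KO for Idh3b.

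Because few nodes were called, nodes were also described by size: Psi differing by 0.1 or more in the same direction in both the untreated and the TNF pair. For the libraries named KO against WT, 29 nodes were higher and 46 lower, which is 0.518% and 0.822% of the members. Over all 91539 nodes of 4 types (retained introns, cassette exons and alternative 5′ or 3′ exon ends) the shares were 0.414% higher and 0.397% lower, 0.811% in all against 1.34% of the members. Most of these nodes, 78852, were cassette exons, at 0.62% in either direction. Alternative acceptor and donor nodes (the alternative exon ends) were at 2.56% and 2.44%, above the members. Of the 75 members past the size rule, 17 higher and 31 lower ones also met it on edge reads alone. Deposited intervals did not overlap in either pair for 7 higher and 18 lower ones (0.259% and 0.201% over all types). Taken alone, the untreated pair leaned to lower values and the TNF pair did not. In the untreated pair 318 nodes were lower by 0.1 or more and 91 higher, whereas in the TNF pair 147 were lower and 150 higher. At a threshold of 0.05 met in both pairs, 86 nodes were higher and 192 lower.

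**Figure D4:**
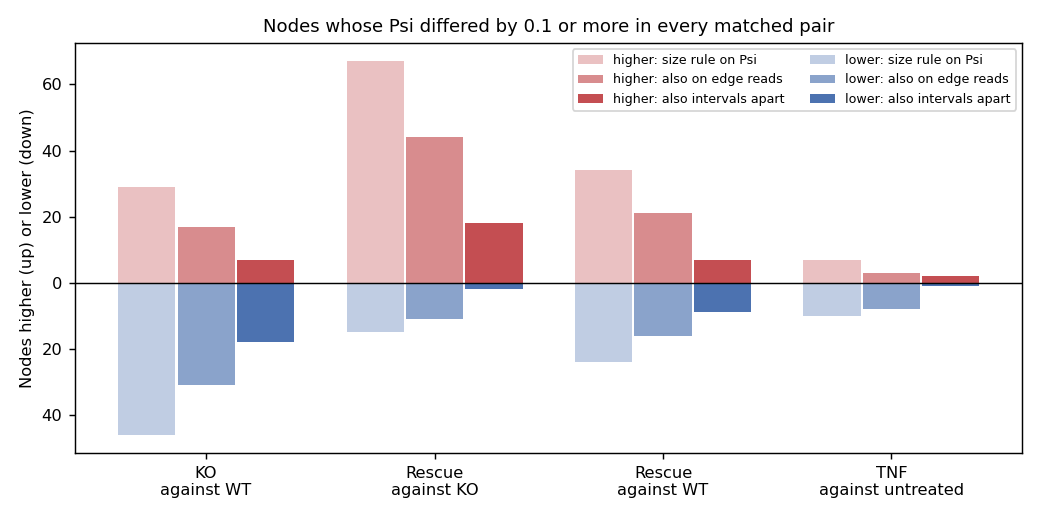
Number of nodes (vertical axis, higher upward and lower downward) whose Psi differed by 0.1 or more in every matched pair, for 4 comparisons of the libraries as named. Pale bars count all such nodes, middle bars those that meet the rule on edge reads, dark bars those with separate deposited intervals. Rescue against KO has 67 higher and 15 lower.

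The nodes in this paragraph were chosen after their values were seen, and none was called. They met the size rule on Psi and on edge reads with separate intervals. They are examples, and nodes of other genes, Fxr1, Ilk, Slc35a4 and Slc35a2 among them, also met this filter and are not described. In Anks1, an adaptor with ankyrin repeats that binds Eph receptors, the last intron was at 0.0746 and 0.104 in the named WT pair, 0.535 and 0.405 in KO, and 0.333 and 0.45 in Rescue, from 26 to 58 reads. Both named WT libraries were below the other 4. In Maged2, a MAGE family gene, a 5′ UTR intron was at 0.434 and 0.553 in the named WT pair and 0.713 and 0.74 in KO. Zcchc2, a zinc finger gene, showed the opposite order in its last intron, with 0.887 and 0.737 in the named WT pair, 0.496 and 0.489 in KO, and 0.597 and 0.574 in Rescue. Atxn2l, a paralog of ataxin-2, held 2 such nodes, at 0.639 and 0.622 against 0.384 and 0.388, and at 0.525 and 0.58 against 0.398 and 0.347. Ciz1, which encodes a nuclear protein that binds the cell cycle inhibitor p21, was at 0.672 and 0.581 in the named WT pair, 0.492 and 0.467 in KO, and 0.591 and 0.613 in Rescue. Its node, printed above, is 135 bases long, a multiple of 3, and lies within annotated coding sequence. Slc6a9, a glycine transporter gene, was at 0.194 and 0.184 against 0.0546 and 0.0441 and stood at 0.212 and 0.185 in the named Rescue pair. Erf, an ETS repressor gene, was at 0.172 and 0.159 against 0.0597 and 0.0511. For Slc6a9 and Erf the named WT and Rescue libraries all lie above both named KO libraries.

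Adding human PTBP1 back was compared with KO, sharing the named KO libraries with the comparison above. edgeR called 1 node, Kctd17, a share of 0.0281% against 0.699% over all types fitted, with 150 nodes at an unadjusted p under 0.05 and 0 called by limma. By size, 67 nodes were higher in Rescue and 15 lower, or 1.20% and 0.268% of the members against 0.426% and 0.371% over all types (0.797% in either direction). In either direction the shares were 1.46% of members, 2.66% of alternative acceptors and 2.41% of alternative donors. The lean to higher values was present in both pairs, with 244 higher and 99 lower in the untreated pair and 225 higher and 87 lower in the TNF pair. On edge reads 44 higher and 11 lower nodes remained past the rule, and with separate intervals 18 and 2 (0.199% and 0.227% over all types). Mthfsd, a gene for a protein with a methenyltetrahydrofolate synthetase domain, had 0.424 and 0.492 in the named KO pair and 0.751 and 0.769 in Rescue, with named WT between at 0.573 and 0.651. Hdac10, a deacetylase gene, had 0.146 and 0.196 in KO and 0.377 and 0.494 in Rescue. Nisch, which encodes the imidazoline receptor nischarin, had 0.161 and 0.17 against 0.297 and 0.277, from 416 to 633 reads, with the named WT pair at 0.241 and 0.238. These 3 were chosen after their values were seen and were not called.

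Rescue against WT shares libraries with both comparisons above. edgeR called 1 node there (0.0281% of members fitted, 0.155% of all types, 102 members at an unadjusted p under 0.05, 0 by limma). By size, 34 nodes were higher and 24 lower, 0.607% and 0.429% of members against 0.212% and 0.196% over all types (0.407% in either direction). With separate intervals there were 7 higher and 9 lower (0.0623% and 0.0666% over all types), and 21 and 16 met the rule on edge reads. Direction differed between pairs, with 119 higher and 192 lower in the untreated pair and 218 higher and 89 lower in the TNF pair.

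Genes of SR proteins, the serine- and arginine-rich splicing factors, held 37 nodes in 17 genes. Their median mean Psi was 0.19, against 0.036 over all members, and 25 of 37 had a mean over 0.1, against 1491 of 5599. For KO against WT as named, 16 of 37 were lower in both pairs and 4 higher (24.4% and 12.8% of all members were), with a median difference in Psi of -0.0138 (-0.00014 over all members). Of all members, 3476 were below 0.1 in all 6 libraries and 581 at 0, which leaves little room to be lower. The values over all members are therefore no matched background, and none matched by Psi was taken for this or the later gene lists. For Rescue against KO, 19 were higher in both pairs and 2 lower (1620 and 674 of all members), with a median of 0.015 (0.001 over all). With TNF as named, 14 were lower in all 3 pairs and 2 higher (581 and 459 of all members), with a median of -0.014 (0 over all), a shift as large as that between KO and WT. None was called. Past the size rule were nodes of Srsf2 and Srsf7, both lower in named KO than in WT, and 2 nodes of Srsf2 and 1 of Luc7l3, higher in Rescue than in KO.

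Srsf2 is a splicing activator whose own 3′ UTR is alternatively spliced. A 269-base intron of that UTR had Psi of 0.412 in named WT, 0.232 in WT_TNF, 0.15 in KO, 0.124 in KO_TNF, 0.255 in Rescue and 0.245 in Rescue_TNF, from 427 to 627 reads. A 529-base neighbour followed it, with 0.389, 0.213, 0.147, 0.124, 0.247 and 0.232. Both named KO libraries were the lowest, and named WT stood well above all others, its own TNF partner included. For KO against WT the first of these nodes had log2 odds of -1.54 (SE 0.33, edgeR adjusted p = 0.109). The remaining node of the gene, next to the last exon and overlapped by an exon of another gene, was between 0.989 and 0.997 throughout. In Srsf7 a 180-base node was at 0.459 and 0.403 in the named WT pair, 0.353 and 0.291 in KO, and 0.401 and 0.243 in Rescue, so the Rescue_TNF library was the lowest of all. On edge reads alone the differences between KO and WT in the 269-base Srsf2 node and the Srsf7 node did not reach 0.1 in both pairs. The Luc7l3 node, a 29-base stretch in a gene for a protein associated with U1 snRNP, was at 0.254 and 0.154 in the named WT pair, 0.188 and 0.128 in KO, and 0.29 and 0.256 in Rescue.

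Kinases of SR proteins held 19 nodes in 8 genes, of which 10 were lower in named KO than WT in both pairs and 2 higher, with 0 called. Prpf4b, a kinase that acts on the spliceosome, had 0.8 and 0.904 in the named WT pair, 0.613 and 0.753 in KO, and 0.732 and 0.745 in Rescue. Clk2, which phosphorylates SR proteins, had 0.335 and 0.189, then 0.163 and 0.149, then 0.365 and 0.348. Its 691-base node had 15 to 47 reads on the 5′ edge and 0 to 2 on the 3′ edge, so the deposited Psi rests on reads at one end.

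**Figure D5:**
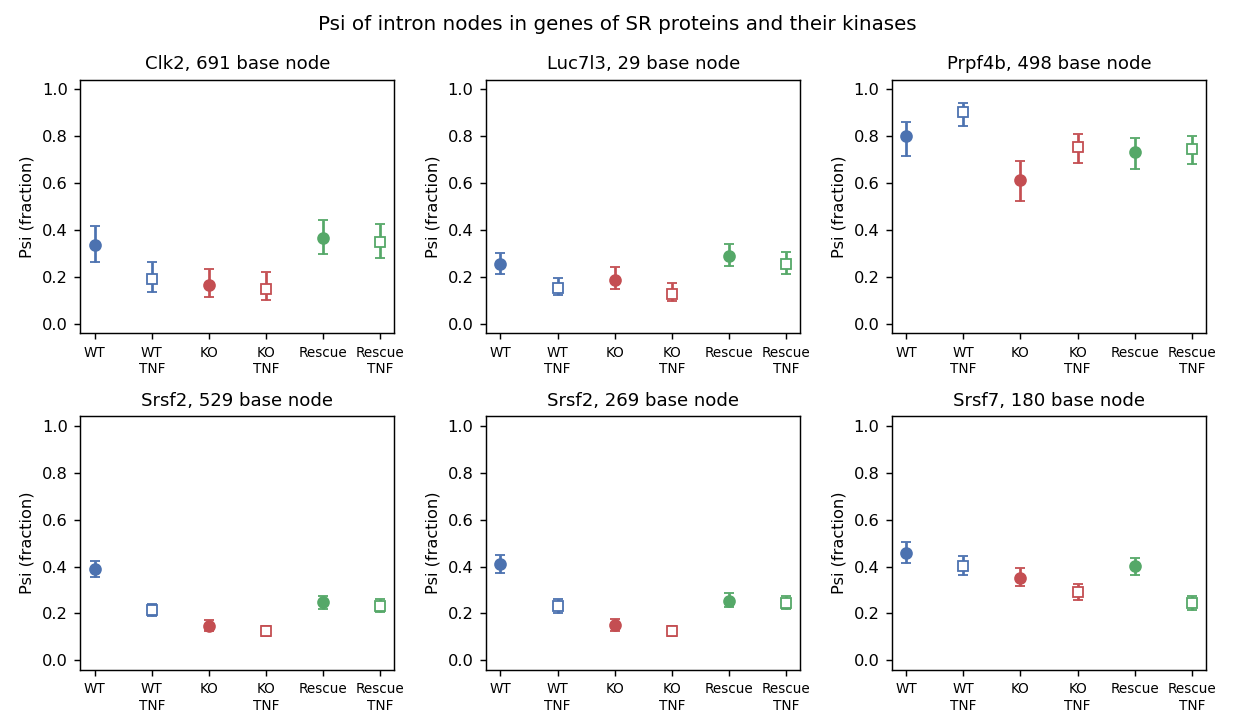
Psi (fraction) of the nodes in genes of SR proteins and their kinases that passed the size rule in a genotype comparison, in each library as named. Circles are untreated and open squares TNF libraries, and bars are the deposited intervals. For both Srsf2 nodes the named KO pair is lowest.

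The 38 nodes of hnRNP and PTB protein genes had 13 lower and 6 higher in both pairs of KO against WT. Of 28 nodes in genes known for detained introns in mouse cells, 17 were lower and 3 higher, and nodes of Ddx5 and Srsf7 were among those past the size rule. That list shares Srsf7 with the SR proteins. For Rescue against KO, 10 of its 28 nodes were higher in both pairs and 6 lower, with a median difference of 0.00135. For Rescue against WT, 2 were higher and 15 lower (1139 and 911 of all members). With TNF as named, 0 were higher and 10 lower in all 3 pairs. The list of terminal introns known to depend on Ptbp1 had 1 node, not past the size rule and not called. Ddx5, an RNA helicase gene, had 0.504 and 0.38 in the named WT pair and 0.362 and 0.277 in KO, from 955 to 1240 reads. Of 59 nodes in core spliceosome genes, 26 were lower and 7 higher, none past the size rule for KO against WT. Prpf39, a U1 snRNP factor gene, had a node at 0.338 and 0.337 in the named WT pair and 0.439 and 0.459 in Rescue, past the size rule for Rescue against WT and not called. Nodes of nonsense-mediated decay factors (11), of replication and mitosis genes (40) and of TNF and NF-kB pathway genes (19) had a median difference of 0, 0 and -0.0075, with none past the size rule. In the last list, 2 nodes of Ikbkb, the kinase that releases NF-kB, were higher in named Rescue than KO by the size rule, from 22 to 50 reads, and neither was called.

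TNF was compared with no TNF over the 3 named genotypes. edgeR called 0 of 3563 nodes (94 at an unadjusted p under 0.05, 0 by limma), where 0.0807% of all nodes fitted were called. By size in all 3 pairs, 7 nodes were higher and 10 lower, 0.125% and 0.179% of members against 0.0382% and 0.0546% over all types (0.0929% in either direction). Alternative acceptors were at 0.370% and alternative donors at 0.462% in either direction, against 0.304% of members. Intervals were separate in every pair for 2 higher and 1 lower (0.00546% and 0.00437% over all types), and 3 and 8 met the rule on edge reads. Psd, an exchange factor gene for the GTPase Arf6, had the largest rise in value, from 0.374 to 0.812 in the named WT pair, 0.608 to 0.868 in KO and 0.8 to 0.938 in Rescue, for the 377-base intron whose end is printed above. Each TNF library was above its partner with separate intervals (log2 odds 2.37, SE 0.38, edgeR adjusted p = 0.169), and Psd RNA was also higher with TNF in each pair, at 31.3, 33.4 and 40.4 TPM against 18.9, 19.7 and 14.4. Snhg17, a noncoding host gene of small nucleolar RNAs, went the other way, from 0.669 to 0.316, 0.414 to 0.165 and 0.611 to 0.355. Adamts7, a secreted metalloprotease gene, had 0.887, 0.739 and 0.604 without TNF and 0.565, 0.462 and 0.486 with it, while its RNA went from 7.7, 7.8 and 10.8 TPM to 71.4, 19.9 and 71.6. Snhg17 was the 1 lower node with separate intervals in every pair, so the Adamts7 intervals overlapped in at least 1 pair. These 3 were chosen after their values were seen.

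The same comparisons were made with the groups as labelled. For labelled KO and WT, edgeR called 0 nodes (23 at an unadjusted p under 0.05) and limma 0 (56), against 0.0% of all nodes fitted. By size 15 nodes were higher in KO and 16 lower, 0.554% of members against 0.303% over all types (0.151% higher and 0.152% lower). For labelled Rescue and KO, edgeR called 0 (41) and limma 0 (70), again against 0.0%, and 16 nodes were higher and 20 lower by size, 0.643% against 0.291% (0.126% higher and 0.165% lower). For labelled Rescue and WT, edgeR called 0 (36) and limma 0 (73), against 0.0%, and 16 were higher and 11 lower, 0.482% against 0.235% (0.113% higher and 0.122% lower). For labelled TNF against untreated, 1 node was called (0.0281% of members, 0.00672% of all types fitted), in Mtch1, a mitochondrial outer membrane protein gene. Psi of its last intron, in the 3′ UTR, was 0.974, 0.974 and 0.97 in the libraries labelled WT, KO and Rescue and 0.523, 0.44 and 0.6 in those labelled WT_TNF, KO_TNF and Rescue_TNF (adjusted p = 0.031). The exon part just after it had nearly the same Psi, 0.974, 0.974 and 0.975 against 0.525, 0.44 and 0.6. On edge reads the intron node was at 0.983, 0.984 and 0.977 against 0.962, 0.979 and 0.991, so the reads at its edges do not show the difference. That call was lost without the library labelled KO or the library labelled KO_TNF (adjusted p up to 0.51), and limma called 0 nodes (84 at an unadjusted p under 0.05). By size, 8 nodes were higher and 5 lower with labelled TNF, 0.232% of members against 0.071% over all types (0.0426% higher and 0.0284% lower). In each labelled comparison alternative acceptors and donors passed the size rule more often than members. Their shares were 1.55% and 1.75% for KO against WT and 1.16% and 1.78% for Rescue against KO. They were 1.58% and 1.19% for Rescue against WT and 0.394% and 0.429% for TNF.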

How the data were processed

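Tables of splicing nodes and of genes from 6 libraries were used. Psi is a fraction per node that the authors deposited, with an interval of unstated confidence level and an estimated count of reads per node. Gene tables give TPM and estimated counts, as deposited, from which gene levels and library depth (26882058 to 30011222 reads) were taken. RSEM is the only tool in the submitters' processing notes, and the tool behind Psi is not given in the sources used here. Members and gene lists were chosen with earlier results of these data known.

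Inclusion reads (Psi times reads, rounded) and exclusion reads were fitted in edgeR 4.0.16 (R 4.3.3) with a term per library, additive genotype and TNF, and 2 residual degrees of freedom. Nodes needed 20 reads in all 6 libraries and 10 summed inclusion and exclusion reads, and Benjamini-Hochberg adjustment ran over all 14870 nodes fitted. Of the members 1677 had too few inclusion and 359 too few exclusion reads. limma 3.58.1 on log2 odds (pseudocount 0.5) was an alternative. The fit was chosen after real calls had been seen: a common negative binomial dispersion came first, called 0 retained intron nodes and recovered 0 changes in the self-test, several dispersion settings were then counted on the real data, and the quasi-binomial fit (dispersion 0) was taken. Tested on simulated data for KO against WT as named, it recovered 22 of 100 changes of 2 and 71 of 100 of 4 log2 odds over 13383 nodes, with 2 unchanged nodes called. With unequal spread it recovered 7 and 47 over 13518 nodes, with 7 called.

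Nodes named in the text are those called that also differ by 0.1 in every pair, and nodes of the gene lists past the test or the size rule. One gene that met this rule is not reported here. Others are marked as chosen after their values were seen. Edge reads (the mean of the reads on an intron's 2 edges, over that plus the reads that skip it), the deposited intervals, host gene levels and flanking nodes were also added after seeing the data. Python 3.11.15, pandas 2.3.3 and matplotlib 3.10.9 made the tables and figures. Sequences and positions come from GENCODE vM21 transcripts (GRCm38).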

Additional observations from a re-analysis of the deposited data

Results flagged for a closer look

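TNF went with opposite changes in the named genotypes for the share of nodes over 0.1 and for a few nodes. None of these differences was tested. The nodes were picked from all 5599 after their values were seen. Each changed by 0.1 or more in opposite directions in a pair of genotypes, on Psi and on edge reads, with separate intervals. The share of nodes with Psi over 0.1 changed by -4.39 percentage points in named WT, by 1.07 in KO and by 0.536 in Rescue. An Ankrd11 intron at chr8:122902341 changed in Psi by -0.367 with TNF in named WT, by 0.518 in KO and by 0.424 in Rescue, from 20 to 34 reads per library. On edge reads the shares of this node were closer together, 0.515 and 0.333 in named WT without and with TNF and 0.106 and 0.409 in KO. A neighbouring Ankrd11 node at chr8:122900699 changed by -0.367 in named WT and 0.424 in Rescue and stood at 0.368 and 0.518 in named KO. Both Ankrd11 nodes share the same 4 to 21 skipping reads, so they are not independent. An Otud5 intron changed by -0.157 in named WT and 0.143 in Rescue. Reads that skip it numbered 1 and 4 in the named WT pair and 3 and 0 in the named Rescue pair, so its changes rest on few reads. A Mtif2 node changed by -0.211 in named KO and 0.272 in Rescue, from 44 to 69 reads. Ankrd11 encodes a chromatin regulator, Otud5 a deubiquitinase and Mtif2 a mitochondrial translation initiation factor.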

How the results depend on the processing

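Each node called kept its sign in every alternative fitted. The balance of higher and lower nodes past the size rule did not always hold, and these are examples. It went from 7 higher and 10 lower to 5 and 1 with 50 reads for named TNF, and to 2 and 1 with separate intervals. It went from 34 and 24 to 7 and 9 with separate intervals for named Rescue against WT. As labelled, it turned from 15 and 16 to 5 and 3 with 50 reads for KO against WT, from 16 and 20 to 4 and 2 with separate intervals for Rescue against KO, from 16 and 11 to 68 and 86 at 0.05 for Rescue against WT, and from 8 and 5 to 1 and 2 with 50 reads for TNF. Calls depended most on the dispersion, and the alternatives on dispersion, deviance, edge reads and intervals were chosen after seeing the data. In the order KO against WT, Rescue against KO, Rescue against WT and TNF, as named, calls were 4, 1, 1 and 0. limma and a common dispersion gave 0 in each, a tagwise dispersion 39, 30, 19 and 20, and a tagwise dispersion with adjusted deviance 46, 38, 27 and 25. The quasi-binomial fit with adjusted deviance gave 2 for KO against WT. Edge reads gave 1 there and 0 for Rescue against WT. Leaving out a library changed the number called in each comparison. For KO against WT it rose without the library named Rescue (labelled KO_TNF) and without Rescue_TNF, neither of them compared there. It did not rise without any library named WT or KO, with or without TNF. As labelled, a tagwise dispersion gave 2, 3, 2 and 5. For labelled TNF, limma, a common dispersion, the quasi-binomial fit with adjusted deviance and edge reads gave 0, no read filter 3, and leaving out a library 0 to 3. Past the size rule at 0.05, 0.2, with 50 reads, and with separate intervals were 278, 12, 28 and 25 nodes for named KO against WT, 285, 8, 31 and 20 for Rescue against KO, 228, 9, 21 and 16 for Rescue against WT, and 64, 1, 6 and 3 for TNF. As labelled these were 161, 0, 8 and 3, then 199, 2, 7 and 6, then 154, 5, 8 and 4, then 68, 1, 3 and 2, with 6 on edge reads for TNF. Among nodes with 50 reads the share over 0.1 was 24.9% in named WT, 22.0% in WT_TNF, 20.9% in KO, 21.5% in KO_TNF, 23.2% in Rescue and 23.7% in Rescue_TNF. The cause of these shifts was not tested. No paired analysis was possible because each group has 1 library, so no replicate number could serve as a block. Matching of untreated with TNF libraries is already part of every fit and of the size rule. Reads per node limit the precision of Psi. What the deposited intervals cover is not stated in the sources used here. Each comes from 1 library, so it holds no spread between replicates.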
